A study of Homo sapiens with 6 samples.

Results

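The heme biosynthesis enzymes are the proteins that build heme, the iron-containing ring of hemoglobin and the cytochromes, and they were followed here through 8 genes, ALAS1, ALAS2, ALAD, UROS, UROD, CPOX, PPOX and FECH. The genes were chosen by name, in pathway order, and not by a measured value, although earlier results of these data were known. They were 8 of the 19053 genes with a symbol in the deposited table, and not every enzyme of the pathway was among them. The table counts reads on RefSeq protein accessions, so the isoforms of a gene stand in separate rows, and the 8 genes held 46 of its 109018 rows. The reads of a gene's rows were summed for the gene level, and rows were also read singly.

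RNA-seq was done on K562, a human erythroleukemia line derived from chronic myeloid leukemia that carries Bcr-Abl and makes embryonic and fetal globins. The 3 sh-lncRNA-IIRX libraries came from cells stably expressing a short hairpin RNA (shRNA) against lncRNA-IIRX, called lncRNA-IUR-5 in the study, an lncRNA that was induced by the Abl inhibitor imatinib. The 3 sh-luc libraries came from control cells stably expressing an shRNA against luciferase. Both shRNAs were delivered by lentivirus in the pSIH-H1-GFP vector, so that both groups carried the same vector, and no drug treatment is named in the labels for these libraries. The RNA came from separate groups of cells, but each line expressed 1 hairpin, so effects of losing the lncRNA and other effects of this hairpin cannot be told apart. Because the rows are protein accessions, the level of the lncRNA itself was not analysed here.

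Heme synthesis starts in the mitochondrion, where 5-aminolevulinate synthase joins glycine and succinyl-CoA, continues in the cytosol to coproporphyrinogen, and ends in the mitochondrion with the insertion of iron. The first step has a gene used in all tissues, ALAS1, and an erythroid gene, ALAS2, whose messenger RNA carries an iron-responsive element. In erythroid cells the pathway is known to be switched on with the globin genes by GATA1 and its partners.

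The sequence that the hairpin was designed against is shown because it defines the knockdown. It is written as DNA in the sense of the lncRNA, with the stretch that would pair with bases 2 to 8 of the guide strand in capitals, if the guide starts opposite the last base.

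sh-IUR-5 target: gctagtatcaggtTTAAATAg

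None of the 116 GENCODE transcripts of the 8 genes held the whole 21-base target, a count of 0. The capital letters occurred in the 3′ UTR of the canonical transcript of 1 of the 8 genes, CPOX, and in that of 26.1% of the 19983 genes searched. A match of these letters is a description and not a site of action.

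The libraries held 21023739 to 31481109 reads on accessions, of which the 8 genes took 0.0715% to 0.0817%. The K562 identity was checked on 11 erythroid markers, which were all at a mean of at least 1 RPKM (reads scaled to the length of the row and to the reads of the library) and summed to 25049 to 28106 RPKM in the sh-luc and 19615 to 20699 RPKM in the sh-lncRNA-IIRX libraries. Of 6 markers each, 1 megakaryocyte, 1 lymphoid and 1 myeloid gene reached a mean of 1 RPKM, with summed levels of 1.68 to 2.42, 2.54 to 3.72 and 78.5 to 94.8 RPKM. The myeloid sum was carried by LYZ, the lysozyme gene, at a mean of 89.0 RPKM, while MPO and ELANE were at 0 reads in every library, as were PF4, PPBP and MS4A1. The labels number replicate 1 of each group apart from replicates 2 and 3, and values within these label series are given beside the results.

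The transcript levels of the 8 enzymes spanned a wide range. UROD, which removes some of the carboxyl groups of uroporphyrinogen, had by far the highest mean over the 6 libraries at 409 RPKM. This was 55.4 times that of ALAS2, the lowest at 7.39 RPKM. Between them lay CPOX at 61.7, PPOX at 50.7, FECH at 42.9, ALAS1 at 27.6, UROS at 20.0 and ALAD at 15.7 RPKM. The order turned within groups, with PPOX (53.0) above CPOX (46.3) in the sh-luc and FECH (53.7) above PPOX (48.3) in the sh-lncRNA-IIRX libraries, and neighbours were not always apart. In the sh-luc libraries the highest CPOX value (47.5) lay just below the lowest PPOX value (47.9), and ALAS1 overlapped UROS. In the sh-lncRNA-IIRX libraries PPOX overlapped FECH, and UROS overlapped ALAD. UROD above CPOX, FECH above ALAS1 and ALAD above ALAS2 were apart in both groups. All 8 genes passed the minimum mean of 1 RPKM. UROD was the only gene with 1 row, beside up to 17 for PPOX. How reads shared by isoform rows were counted is not given, so levels may not compare evenly between genes.

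**Figure D1:**
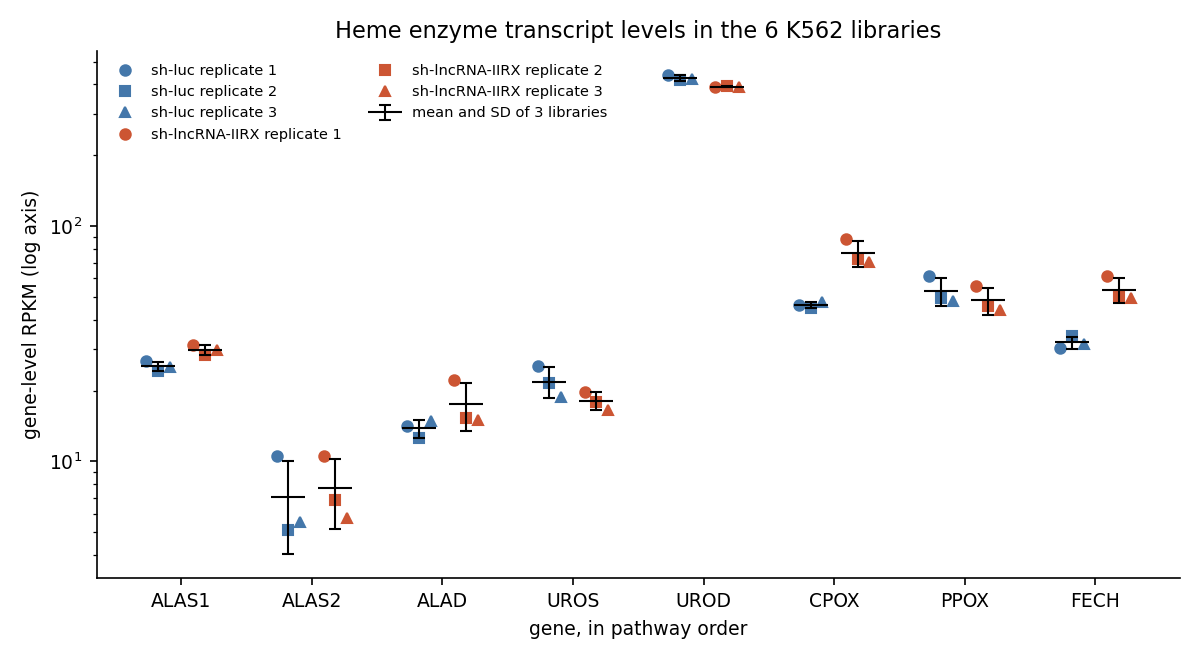
Gene-level RPKM of the 8 enzymes (log axis) in each of the 6 libraries, in pathway order, with the mean and SD of the 3 libraries of each group. The CPOX and FECH points of the sh-lncRNA-IIRX libraries lie above all sh-luc points of the gene, as do, by less, those of ALAS1 and ALAD. UROD lies highest in every library, and ALAS2 is higher in replicate 1 of both groups.

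In the comparison of sh-lncRNA-IIRX with sh-luc, CPOX and FECH, which act late in the pathway, rose by close to the same factor. UROS, UROD and PPOX were lower when the libraries were scaled by TMM, which centres the bulk of genes, and ALAS1, ALAS2 and ALAD did not pass the test. In the quasi-likelihood test of edgeR on 22162 gene sums, with p-values adjusted by Benjamini-Hochberg and a threshold of 0.05, 2 of the 8 enzymes were therefore higher and 3 lower. Of all features tested, 20.7% were higher and 19.7% lower. The 2 higher among 8 were near that share and the 3 lower were above it, and with 8 genes no difference from these shares was tested. The median log2 fold change was -0.02 over the 8 enzymes and 0.01 over all features.

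CPOX, which turns coproporphyrinogen into protoporphyrinogen in the mitochondrial intermembrane space, was at 46.3, 45.1 and 47.5 RPKM in the sh-luc libraries. In the sh-lncRNA-IIRX libraries it was at 88.3, 72.2 and 70.6 RPKM. The groups were far apart, and the sh-luc libraries were close to one another. The fitted rise was 1.45-fold, a log2 fold change of 0.54 with a standard error (SE) of 0.08 (edgeR adjusted p = 0.00015), with a 95% confidence interval of 0.36 to 0.71. Within the label series the log2 difference of the scaled counts was 0.69 in series 1 and 0.45 in series 2.

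FECH, the ferrochelatase that inserts iron into protoporphyrin, was at 30.3, 34.1 and 31.7 RPKM in the sh-luc and at 61.5, 50.3 and 49.4 RPKM in the sh-lncRNA-IIRX libraries. As for CPOX, no libraries of the groups overlapped, and replicate 1 of sh-lncRNA-IIRX was the highest. The fitted rise was 1.46-fold (log2 fold change 0.55, SE 0.09, edgeR adjusted p = 0.000225), with 0.78 in series 1 and 0.43 in series 2.

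CPOX and FECH stayed past the threshold in all 20 alternative fits, with log2 fold changes of 0.46 to 0.74 for CPOX and 0.30 to 0.76 for FECH. The lowest FECH value, 0.30 (edgeR adjusted p = 0.0118), came from the fit after removal of the trends that counts followed, library by library, with the GC content of the coding sequence and the length of the transcript, and CPOX was at 0.57 there.

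UROS, which closes the ring to uroporphyrinogen III, was at 25.3, 21.5 and 18.7 RPKM in the sh-luc and at 19.7, 17.8 and 16.6 RPKM in the sh-lncRNA-IIRX libraries. The groups overlapped in RPKM and were apart in TMM-scaled counts, with a log2 fold change of -0.49 (SE 0.11, edgeR adjusted p = 0.0028). Within the label series it was -0.62 in series 1 and -0.41 in series 2.

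UROD was at 439.8, 416 and 423 RPKM in the sh-luc and at 389, 396 and 391 RPKM in the sh-lncRNA-IIRX libraries. Its groups were apart on both scales, and its log2 fold change was -0.32 (SE 0.07, edgeR adjusted p = 0.00162), with -0.42 in series 1 and -0.27 in series 2. UROD was the most precisely measured of the 8, with at least 9791 reads in every library.

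PPOX, which oxidises protoporphyrinogen to protoporphyrin on the inner mitochondrial membrane, was at 61.4, 49.7 and 47.9 RPKM in the sh-luc and at 55.7, 45.5 and 43.8 RPKM in the sh-lncRNA-IIRX libraries. The groups overlapped in RPKM, because replicate 1 was the highest in both. In TMM-scaled counts they were apart, and the log2 fold change was -0.32 (SE 0.10, edgeR adjusted p = 0.0212), with -0.37 in series 1 and -0.29 in series 2.

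These 3 lower calls rested on the scaling. With scaling to total reads, which moves the median of all features from 0.01 to 0.21 on the log2 scale, UROS was at -0.28 (edgeR adjusted p = 0.0575), UROD at -0.12 (0.103) and PPOX at -0.11 (0.408), and none was past the threshold. With that scaling 37.0% of all features were higher and 9.16% lower, and ALAS1 passed with 0.24 (edgeR adjusted p = 0.0205). With the GC content and length trends removed, 19.9% of the 10271 genes tested were higher and 17.4% lower, and UROS was at -0.26 (edgeR adjusted p = 0.0935), UROD at 0.04 (0.518) and PPOX at -0.09 (0.488), so the UROD value changed sign. PPOX also lost the threshold without sh-luc replicate 1 (-0.20, edgeR adjusted p = 0.11), without sh-lncRNA-IIRX replicate 2 (-0.30, 0.0715) and without sh-lncRNA-IIRX replicate 3 (-0.26, 0.0868).

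**Figure D2:**
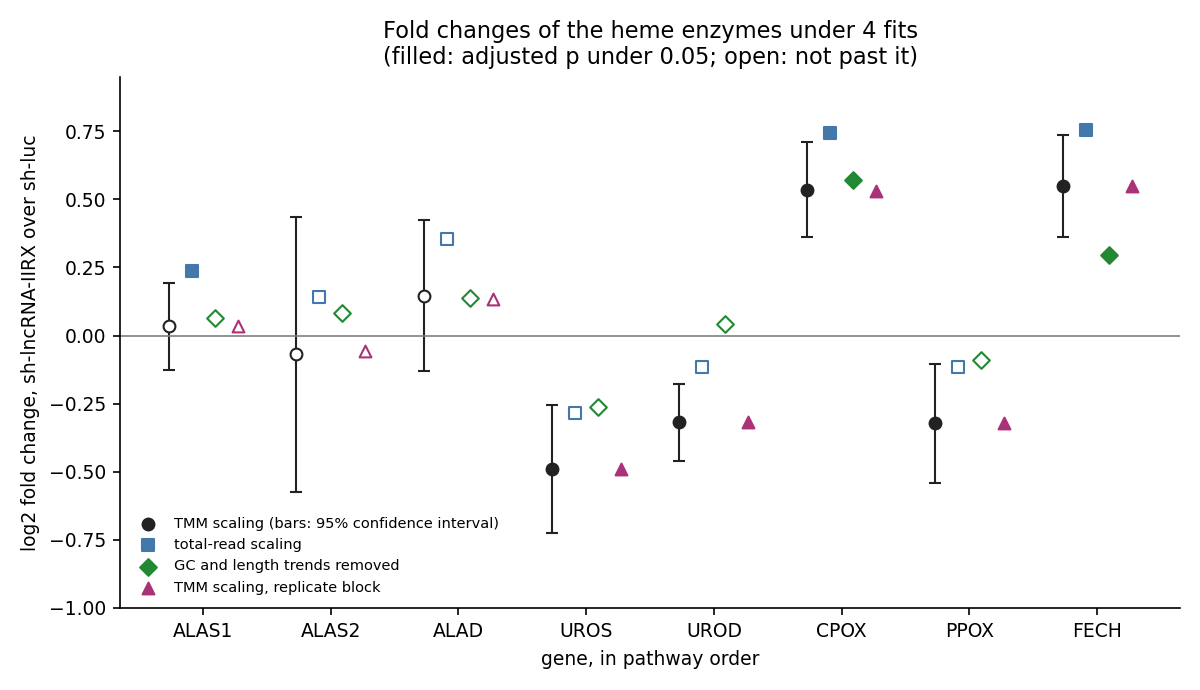
Log2 fold change (sh-lncRNA-IIRX over sh-luc) of each enzyme under 4 fits, with the 95% confidence interval of the TMM fit as bars. Filled symbols have an adjusted p under 0.05. CPOX and FECH are filled under all 4 fits, while UROS, UROD and PPOX are open under total-read scaling and with GC and length trends removed.

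The first step of the pathway did not pass the test. ALAS1 was at 26.6, 24.2 and 25.3 RPKM in the sh-luc and at 31.2, 28.4 and 29.8 RPKM in the sh-lncRNA-IIRX libraries, apart in RPKM but overlapping in TMM-scaled counts. Its log2 fold change was 0.03 with a 95% confidence interval of -0.13 to 0.19 (edgeR adjusted p = 0.748), with -0.02 in series 1 and 0.06 in series 2, so a change of the size seen for CPOX lay outside the interval.

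ALAS2 was at 10.5, 5.13 and 5.52 RPKM in the sh-luc and at 10.6, 6.85 and 5.73 RPKM in the sh-lncRNA-IIRX libraries. It varied more between the label series than between the groups, with replicate 1 at 1.97 times the other sh-luc libraries and 1.6 times the other sh-lncRNA-IIRX libraries in scaled counts. Its log2 fold change was -0.07 with a 95% confidence interval of -0.57 to 0.44 (edgeR adjusted p = 0.84). This interval includes the change of UROD but not the rise of CPOX, and no difference was detectable at this spread. The log2 difference was -0.24 in series 1 and 0.06 in series 2. The value was 0.35 without sh-luc replicate 1 and -0.34 without sh-lncRNA-IIRX replicate 1, and neither passed.

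The ratio of ALAS2 to ALAS1 reads within a library was 0.359, 0.193 and 0.199 in the sh-luc and 0.308, 0.22 and 0.175 in the sh-lncRNA-IIRX libraries. The groups overlapped, and the mean log2 ratio differed by -0.07 (exact two-sided permutation p = 0.8, where 3 libraries against 3 cannot go below 0.1).

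ALAD, the zinc enzyme that condenses 2 aminolevulinate molecules to porphobilinogen, was at 14.1, 12.5 and 14.8 RPKM in the sh-luc and at 22.3, 15.3 and 14.97 RPKM in the sh-lncRNA-IIRX libraries. Replicate 1 of sh-lncRNA-IIRX stood above the other 5 libraries, and the groups were narrowly apart in RPKM but overlapped in TMM-scaled counts. The log2 fold change was 0.15 (95% confidence interval -0.13 to 0.42, edgeR adjusted p = 0.388), with 0.41 in series 1 and -0.02 in series 2, and it was -0.04 without sh-lncRNA-IIRX replicate 1.

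Ratios of reads within a library do not depend on how libraries are scaled, and those between the enzymes that moved were added after their values were seen. FECH stood at 0.0782, 0.0931 and 0.085 reads per UROD read in the sh-luc and at 0.18, 0.145 and 0.144 in the sh-lncRNA-IIRX libraries. CPOX stood at 0.125, 0.128 and 0.133 reads per UROD read in the sh-luc and at 0.268, 0.216 and 0.214 in the sh-lncRNA-IIRX libraries. The mean log2 ratio was thus higher in sh-lncRNA-IIRX by 0.86 for FECH to UROD and by 0.85 for CPOX to UROD, without overlap of the groups. Each had an exact two-sided permutation p = 0.1, the smallest that this design allows, and these pairs were picked for their opposite fold changes.

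FECH to PPOX went from 0.427, 0.596 and 0.57 reads per read in the sh-luc to 0.948, 0.948 and 0.974 in the sh-lncRNA-IIRX libraries. FECH to CPOX, in contrast, overlapped between the groups, at 0.628, 0.727 and 0.64 in the sh-luc and 0.67, 0.67 and 0.672 in the sh-lncRNA-IIRX libraries. UROS to UROD overlapped as well, with a log2 difference of -0.16 (exact two-sided permutation p = 0.2). These ratios do not depend on library scaling, but trends with GC content and length that differ between libraries can enter them. As differences of fitted log2 fold changes, FECH against UROD went from 0.87 to 0.26 when these trends were removed, CPOX against UROD from 0.85 to 0.53 and FECH against PPOX from 0.87 to 0.39, while FECH against CPOX went from 0.01 to -0.27.

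**Figure D3:**
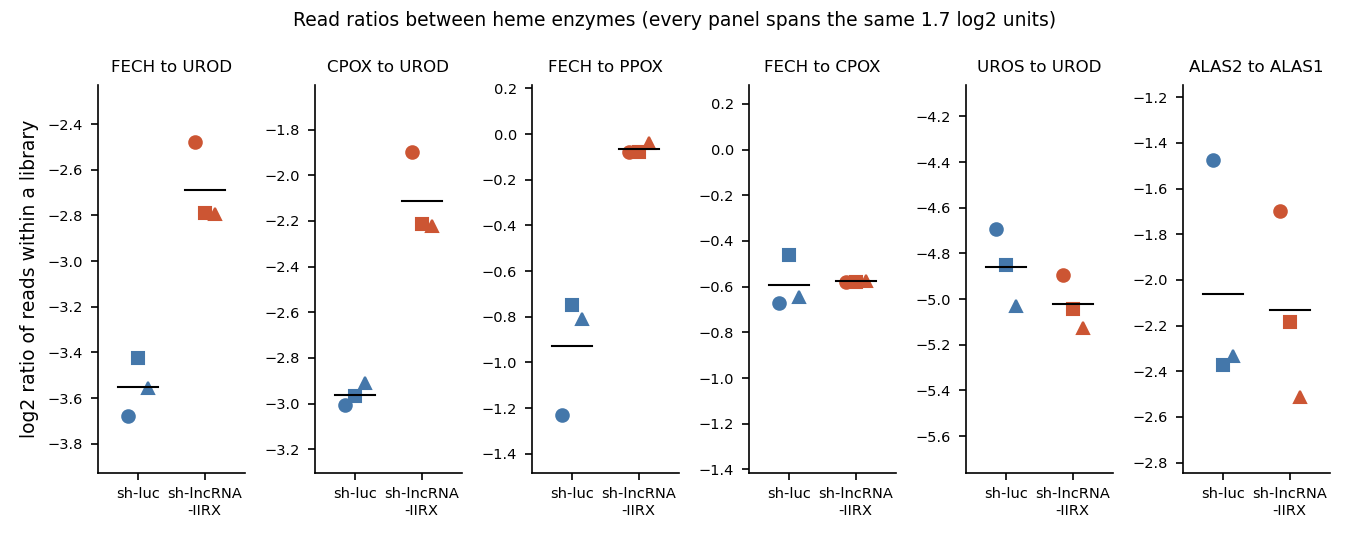
Log2 ratio of reads between pairs of enzymes in each library (circle, square and triangle for replicates 1, 2 and 3), with the group mean as a line and the same span on every axis. The ratios of FECH or CPOX to UROD, and of FECH to PPOX, do not overlap between the groups, whereas FECH to CPOX, UROS to UROD and ALAS2 to ALAS1 do.

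The single rows of a gene tended to carry the same direction as its sum, of which they are parts, so they are not separate evidence. Over 38204 rows, 19.2% were higher and 18.1% lower in the test of rows, and of the 46 rows of the 8 enzymes 5 were higher and 10 lower. The 5 higher rows were both rows of CPOX, at 0.54 each, and all 3 of FECH, at 0.48 to 0.59 on the log2 scale. The 10 lower rows were the only row of UROD, 4 of the 9 rows of UROS and 5 of the 17 rows of PPOX. All 9 UROS rows had negative log2 fold changes, from -0.77 to -0.11. Of the PPOX rows 15 were negative and 2 positive, from -0.65 to 0.02. None of the 7 ALAS1, 3 ALAS2 and 4 ALAD rows passed, and their values ran from -0.27 to 0.22. Without sh-luc replicate 1 the number of enzyme rows past the threshold was 9 in place of 15, and of all 38204 rows 12124 in place of 14256.

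Rows that encode the same protein of ALAS1 held different numbers of reads, and how reads shared by isoforms were counted is not given in the sources used here. A row's level is therefore uncertain where isoforms share sequence. So is the gene sum if a shared read could be counted on more than 1 row or left uncounted. Whether a row moved apart from the other rows of its gene was tested with diffSpliceDGE in edgeR, which called 0.992% of 23295 rows overall and 0 of the 45 rows of the 7 enzymes with more than 1 row. At an unadjusted p under 0.05 there were 2, NP_000679.1 of ALAS1 (edgeR adjusted p = 0.681) and XP_016857055.1 of PPOX (edgeR adjusted p = 1). No row of these enzymes was thus called apart from its gene. If reads of shared sequence were spread over isoform rows, the test could not show a change of isoform use, so no conclusion is drawn.

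The genes lie on 6 chromosomes, in GENCODE release 44 on hg38. CPOX is at chr3:98579446-98593648 on the minus strand and FECH at chr18:57544377-57586732 on the minus strand. ALAS1 (chr3:52198086-52214327, plus strand) is on the chromosome of CPOX but did not move with it. UROD (chr1:45010950-45015575) and PPOX (chr1:161166056-161178013) share a chromosome and the plus strand. ALAS2 (chrX:55009055-55030977), ALAD (chr9:113386312-113401290) and UROS (chr10:125784980-125823258) are on the minus strand. The coding GC content of the canonical transcripts was 57.1% for CPOX and 51.5% for FECH, beside 48.2% for UROS, 56.7% for UROD and 59.3% for PPOX and a median of 52.9% over all genes. FECH had the longest canonical transcript of the 8, at 7689 bases, and UROD the shortest, at 1193 bases.

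Promoters were searched for the letters of the GATA site because GATA1 is the known activator of this pathway. The RefSeq windows, from 250 bases before to 50 after a gene's start in GRCh38.p14, numbered 9 for 7 of the genes, and UROS was not among them. The letters AGATAA, the same letters ending in G, or either form starting with T, on either strand, occurred in 4 of the 9 windows and in 25.0% of all 35116 windows. The matches are shown on the strand of the gene with the GATA letters or their reverse complement in capitals.

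ALAS2 (chrX:55031088-55031115): tactttgggttTTATCTctagcaaggaa

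ALAD (chr9:113401172-113401199): tggatgcggggAGATAGcgggcctggag

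CPOX (chr3:98593802-98593829): gaaagcctcttTTATCTctcccgtccct

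CPOX (chr3:98593720-98593747): gcgtcggattcTTATCTcccgccccgcg

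PPOX (chr1:161166572-161166599): gggtgtggcccTTATCTgcacccagcag

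Of the enzymes with a match, CPOX rose, PPOX was lower under TMM scaling, and ALAS2 and ALAD did not pass the test, while FECH, which rose, held no match in this window. The letters of the STAT site, TTCNNNGAA, were searched because the study concerns STAT5, and they occurred in 0 of the 9 windows and in 7.7% of all. The KLF letters CCACACCC occurred in 1 of the 9, that of PPOX, where they lie next to the GATA letters, and in 3.3% of all. These are counts of letters, with no measure of binding.

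Genes that work beside the enzymes were taken from 4 lists of 56 genes, of which 54 passed the minimum level. In the same fit 14 were higher and 14 lower, to be read beside the shares over all features given above, and the median log2 fold change was -0.07. With scaling to total reads 21 were higher and 8 lower, and with the GC content and length trends removed 12 were higher and 8 lower. HMOX1, the inducible heme oxygenase, was listed at 0 reads in all 6 libraries. Whether reads of this row were lost in the authors' mapping or counting was not tested, so the 0 is not read as a level of the gene. FLVCR2 was below the minimum level.

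Of 16 genes of substrate supply and mitochondrial transport, 5 were higher and 4 lower, with scaling to total reads 7 were higher and 1 lower, and with the trends removed 5 were higher and 1 lower. ABCB10, an inner mitochondrial membrane transporter that forms a complex with mitoferrin and FECH, had the largest change of the list, from 36.7 ± 2.0 to 67.5 ± 11.0 RPKM (SD, n = 3 libraries), a log2 fold change of 0.69 (edgeR adjusted p = 6.32e-05). It stayed past the threshold in all 20 alternatives and was at 0.57 with the GC content and length trends removed. ABCB6, a porphyrin transporter, was at -0.38 (edgeR adjusted p = 0.00151), and TSPO, a protein of the outer mitochondrial membrane, at -0.49 (0.000643). ABCB6 lost the threshold with scaling to total reads (-0.17, edgeR adjusted p = 0.0881), and TSPO was at 0.01 with the trends removed.

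Of 13 genes of iron-sulfur cluster assembly, on which FECH depends for its own cluster, 0 were higher and 4 lower, and with scaling to total reads 1 was higher and 3 lower. LYRM4, a partner of the cysteine desulfurase, was at -0.77 (edgeR adjusted p = 7.16e-06), FDXR, the ferredoxin reductase, at -0.57 (5.62e-05) and BOLA3 at -0.40 (0.00197). LYRM4 and FDXR passed in all 20 alternatives, and LYRM4 was at -0.62, FDXR at -0.33 and BOLA3 at 0.00 with the GC content and length trends removed, where 2 genes of the list were higher and 3 lower.

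Of 11 tested genes of heme export, use and breakdown, 2 were higher and 4 lower, with scaling to total reads 4 were higher and 4 lower, and with the trends removed 1 was higher and 3 lower. The 3 with the largest changes were HMOX2, the constitutive heme oxygenase, at -0.50 (edgeR adjusted p = 8.04e-05), BLVRA at -0.58 (3.47e-05) and BLVRB at -0.55 (4.95e-05), the latter both biliverdin reductases. HMOX2 and BLVRA passed in all 20 alternatives and were at -0.29 and -0.25 with the trends removed, where BLVRB was at -0.04 and did not pass.

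Of 14 regulators and heme sensors, 7 were higher and 2 lower, with a median log2 fold change of 0.35, and with scaling to total reads 9 were higher and 0 lower. BACH1, a repressor that is released from DNA by heme, rose from 5.24 ± 0.64 to 12.9 ± 1.94 RPKM (SD, n = 3 libraries), a log2 fold change of 1.11 (edgeR adjusted p = 6.97e-06). TAL1, a partner of GATA1, was at 0.72 (edgeR adjusted p = 7.36e-05) and IREB2, which binds iron-responsive elements, at 0.62 (0.00017). These 3 passed in all 20 alternatives, and with the trends removed BACH1 was at 0.81, TAL1 at 0.59 and IREB2 at 0.32. The list had 4 higher and 1 lower with the trends removed. GATA1 itself, named because of the promoter letters after its value was seen, was at -0.35 (edgeR adjusted p = 0.0106) and lost the threshold with scaling to total reads (-0.14, 0.277) and with the trends removed (-0.03, 0.772).

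The globins, which take up the heme, were on the marker list, and 6 of 6 were lower, from -0.88 for HBZ to -0.53 for HBG2, with edgeR adjusted p of at most 3.48e-05. HBG1 and HBG2, like HBA1 and HBA2, are near-identical copies between which reads cannot be placed with certainty. All 6 kept their direction with scaling to total reads, and with the trends removed all 6 were nearer to 0. HBG1 (-0.10) and HBG2 (-0.08) no longer passed there, and HBA1 was at -0.13, HBA2 at -0.13, HBE1 at -0.25 and HBZ at -0.36.

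The genes whose pattern over the 6 libraries lay nearest to that of UROD, the member with the highest level, were RPL7A, SARS1 and PCGF1, out of 5979 genes with a mean of at least 10 RPKM. Their root mean square differences from UROD in centred log2 counts were 0.0206, 0.0217 and 0.0224, beside 0.144 for UROS and for PPOX, the nearest of the other enzymes. For CPOX and FECH, added after their values were seen, the nearest were CREG1 (0.0368), RTN4 (0.041) and MYB (0.0413) for CPOX and SDCBP (0.0287), COG5 (0.0429) and RBM7 (0.0449) for FECH. CPOX and FECH were 0.0667 apart from each other, closer than any other of the 8 enzymes was to either of them. These distances come from 6 libraries that share 2 groups and describe likeness only.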

How the data were processed

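Per the submitters' processing notes, CASAVA 1.8, Trimmomatic 0.32, Bowtie2 2.1.0, SAMtools 0.1.19 and hg38 were used. The authors deposited raw read counts for each RefSeq protein accession, and RPKM that recomputed exactly from reads, row length and library total. The annotation release and the rule for reads shared by isoforms are not given in the sources used here. Row lengths were multiples of 3 in 99.8% of rows and so are coding lengths. The authors' own table of the comparison (pooled counts and RPKM, fold change, p and q) was not used. Symbols were found for 64.7% of rows, holding 84.4% of reads, in the RefSeq gene list of GRCh38.p14, and rows without one stayed as features of their own.

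Counts were summed by gene and tested with edgeR 4.0.16 (R 4.3.3, TMM, quasi-likelihood, two-sided) on the 22162 of 57550 features with a mean of at least 1 RPKM. Rows were tested likewise and with diffSpliceDGE, and ratios by exact permutation (scipy 1.17.1). The members and lists were chosen with earlier results of these data known. From each list of related genes the text names the 3 past the threshold with the largest change. GATA1, the globins and the neighbours of CPOX and FECH were named after their values were seen. Alternatives were other scalings, DESeq2 1.42.0, limma 3.58.1 on log2(RPKM + 0.1) and with pseudocounts of 1 and 0.01, other minimum levels, the row with the most reads, a replicate block, a term for the label series and each library left out. Series 2 alone and the removal of GC and length trends (mgcv 1.9.3, 98.8% of the tested genes with a symbol) were added after the data were seen. The scripts were tested on simulated data. Positions are from GENCODE release 44 (hg38) and the hairpin's target from the study's supplement. The result for 1 marker gene is not reported here.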

Additional observations from a re-analysis of the deposited data

How the results depend on the processing

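The 8 enzymes gave 5 calls, 2 higher and 3 lower. The number past the threshold was 3 with scaling to total reads, with limma on log2(RPKM + 0.1) and with its pseudocounts of 1 and 0.01 (3 higher, 0 lower each), and 3 with the row with the most reads (1 lower). It was 2 with GC content and length trends removed (0 lower) and 3 with those trends removed and a replicate block (1 lower, UROS). The 7 other fits gave 4 or 5 calls, and leaving out a library gave 4 to 5, with 2 higher each time and 2 to 3 lower. These losses concern UROS, UROD and PPOX, and RPKM is itself scaled to total reads. Over all 22162 features the calls numbered 8953 in the TMM fit, 10228 with total-read scaling and 7589 with DESeq2. They numbered 9750, 9779 and 9741 with limma at pseudocounts of 0.1, 1 and 0.01, of which 7660, 7681 and 7658 were higher. With the row with the most reads there were 8358, and with a library left out 7157 to 8604. With trends removed 3831 of 10271 genes were called, and 5118 with the replicate block as well. The enzyme rows past the threshold numbered 15, and 9 to 16 with a library left out, the lowest without sh-luc replicate 1. Of all 38204 rows 14256 passed, and 11215 to 13582 with a library left out.

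The direction changed for ALAS1, ALAS2 and ALAD, which were not past the threshold in the TMM fit, and for UROD. ALAS1 was at -0.0088 with no minimum level. ALAS2 was at 0.14 with total-read scaling, 0.16, 0.14 and 0.16 with limma at pseudocounts of 0.1, 1 and 0.01, 0.0035 with a minimum of 5 RPKM, 0.075 in series 2 only and 0.084 with trends removed (0.091 with the replicate block). With a library left out ALAS2 ran from -0.34 to 0.35 and ALAD from -0.037 to 0.24. The difference between the groups in the mean log2 ratio of ALAS2 to ALAS1 then ran from -0.29 to 0.22. ALAD was at -0.017 in series 2 only. UROD was at 0.041 with trends removed (0.0402 with the replicate block). Beyond these, the causes were not tested.

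Deviations of same-numbered libraries of the groups had correlations of 0.347, 0.103 and -0.0099 for replicates 1, 2 and 3, so not every pair exceeded 0.1. Differently numbered pairs ran from -0.295 to 0.256, with 0.256 for sh-luc replicate 2 and sh-lncRNA-IIRX replicate 3. Sh-luc replicate 3 and sh-lncRNA-IIRX replicate 2 were at 0.121. The labels do not say that a number marks a shared culture. With the replicate block 5 enzymes, 16 of their rows, 33 related genes and 10698 of all features passed, in place of 5, 15, 28 and 8953. Of all 38204 rows 16831 passed with the block, in place of 14256. The lowest read number of an enzyme was 187, for ALAS2 in an sh-luc library.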
